A study of Mus musculus with 2 samples.

Results

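The genes described here are 59 components of the Wnt pathway: 19 Wnt ligands, 10 Frizzled receptors, the coreceptors Lrp5 and Lrp6, the receptors Ror1, Ror2 and Ryk, 11 inhibitors, 8 genes of the R-spondin branch, and 6 genes that act inside the cell or report pathway activity. They were taken by name from a list of pathway components, not by a measured value, with earlier results of these data known. All 59 were found among the 43346 gene rows of both libraries. The source was limb tissue of embryonic day 14.5 mice, strain C57BL/6J, from which polyadenylated RNA longer than 200 nucleotides was made into strand-specific libraries and sequenced from both ends. There is 1 group, for which the labels name no treatment or engineered allele, with 2 biological replicates. Each replicate pooled littermates of both sexes. No conditions can therefore be compared, and the data give levels, contrasts between genes, and the difference between the replicates. Both replicates carry the same donor identifier but separate biosample identifiers, so the p-values below reflect no more than how far these 2 samples lie apart, and that spread may be technical. Whether forelimbs, hindlimbs or both were taken is not given in the labels.

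Wnt proteins are lipid-modified secreted ligands. When a Wnt binds a Frizzled receptor together with Lrp5 or Lrp6, the complex that destroys beta-catenin is held back, beta-catenin enters the nucleus, and TCF/LEF factors switch on target genes such as Axin2. Other Wnts act through Ror2, Ryk and the planar polarity proteins without beta-catenin. In the developing limb these signals are known from outgrowth of the bud, from the ectoderm that sets the dorsal side, from joints, and from the choice of mesenchyme between cartilage and other fates.

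Gene rows held 110172148 deposited counts in replicate 1 and 103363136 in replicate 2, so 3 counts, the most that a count of 0 allows, correspond to 0.0272 and 0.029 CPM (counts scaled to library size). Such floors cover counting error only. Of 40 marker genes for cell types of the limb and for other organs, 31 reached 1 TPM in both libraries. TPM is a relative level in which counts are divided by the length of the transcript and then by the library's total. All 6 limb mesenchyme markers did so, among them the forelimb gene Tbx5 at 26.1 and 28.9 TPM and the hindlimb genes Tbx4 at 31.2 and 43.1 TPM and Pitx1 at 49.5 and 77.4 TPM in replicates 1 and 2. None of the 3 lung and gut markers nor the 2 heart markers reached 1 TPM, while of the 2 liver markers Alb had 5.7 and 1.1 TPM and Afp 19.6 and 23.6 TPM. Of the 2 kidney markers Six2 had 24.95 and 38.99 TPM and Pax2 0.04 and 0.08 TPM. The 3 epidermal keratins Krt5, Krt14 and Krt1 summed to 769 TPM in replicate 1 and 549 TPM in replicate 2. In bulk tissue, fewer cells of a type and less RNA per cell cannot be told apart.

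Most members of the pathway were present. A level of at least 1 TPM in both libraries was reached by 53 of the 59 genes. The same held for 33.8% of all genes in the table and 62.8% of protein-coding genes. The median member stood at 12.9 TPM and 37 members had a mean of at least 10 TPM. The 6 members with a mean under 1 TPM were Wnt1, Wnt3a, Wnt8a, Wnt8b, Wnt9b and Rspo4, so 5 of the 6 were ligands. In every role except the coreceptors, 1 or 2 genes held most of the summed level, as the plot of levels by role shows.

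**Figure D1:**
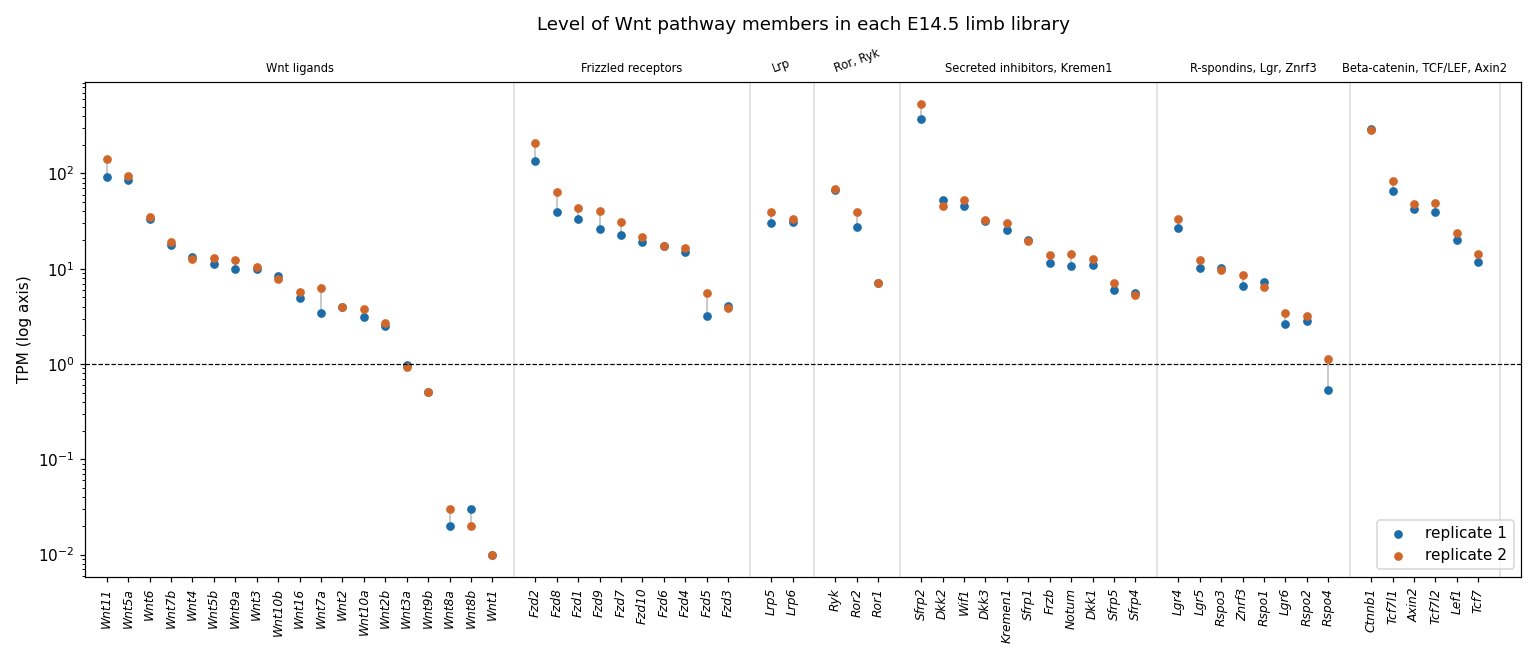
Deposited TPM of each of the 59 members (horizontal axis, grouped by role and ordered by mean) on a logarithmic vertical axis. Blue points are replicate 1, orange points replicate 2, grey lines join the 2 values of a gene, and the dashed line marks 1 TPM. Sfrp2, Ctnnb1, Fzd2, Wnt11 and Wnt5a have the 5 highest means, and Wnt1, Wnt8a and Wnt8b lie at 0.03 TPM or below in both libraries.

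Among the ligands, Wnt11 and Wnt5a stood far above the others. Wnt11, a ligand best known for signalling without beta-catenin (ENSMUSG00000015957.7, GRCm38 chromosome 7, 98835112 to 98855195), had 92.3 TPM in replicate 1 and 141 TPM in replicate 2. Wnt5a, which drives distal outgrowth and polarity in the limb (ENSMUSG00000021994.10, chromosome 14, 28504750 to 28527448), had 85.8 and 94.05 TPM. Their means were 117 ± 34.3 and 89.9 ± 5.84 TPM (SD, n = 2). Wnt11 made up 30.7% and 38.1%, and Wnt5a 28.5% and 25.5%, of the summed TPM of the 19 ligands in replicates 1 and 2. The gene with the higher gene TPM was Wnt11 in both libraries, but their difference on the log2(TPM + 1) scale, -0.34 (95% interval -0.94 to 0.25), did not pass the test (adjusted p = 0.223). With protein-coding transcripts only, Wnt5a was higher in replicate 1 (68.2 against 66.6 TPM) and Wnt11 in replicate 2 (99.9 against 79.3 TPM). The difference was then -0.15 and did not pass either (adjusted p = 0.555). All pairwise tests given here are limma contrasts, Benjamini-Hochberg adjusted over the 24 pairs compared. The pairs were chosen with earlier results of these data known. Wnt5b, the closest relative of Wnt5a, had 11.1 and 13 TPM. In gene TPM, Wnt5a exceeded it by 2.81 ± 0.19 (SE) on the log2(TPM + 1) scale (adjusted p = 9.10e-05), 7.47-fold by mean TPM.

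Several transcripts shared the level of Wnt11, and they begin at 2 separate starts. Wnt11-205, with a coding sequence of 1062 nucleotides, held 31 and 38.3 TPM in replicates 1 and 2. Wnt11-203, a short transcript of 634 nucleotides with an annotated coding stretch of 297 nucleotides, held 34.6 and 60.4 TPM, which was 37.4% and 42.9% of the gene. A further 20.8 and 35.6 TPM belonged to Wnt11-204, annotated as a target of nonsense-mediated decay. Wnt11-201, with the same coding length as Wnt11-205, added 0.98 and 1.12 TPM. Wnt11-205 took 33.6% of the gene's TPM in replicate 1 and 27.2% in replicate 2, and the higher gene level of replicate 2 was mostly in the other transcripts. In read counts scaled by library size (TMM, edgeR) Wnt11 was 1.39-fold higher in replicate 2, against 1.53-fold in TPM.

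The promoters before these starts differ in sequence, and members' promoters are shown here because TCF/LEF factors close the pathway by binding DNA. The RefSeq promoter table (GRCm38.p6) matched 40 of the 59 members, with 49 promoters, each searched from 250 bases before to 50 bases after the start. The letters searched were CTTTGAT and CTTTGAA, forms of the TCF/LEF core, on both strands. No promoter printed here holds more than 1 match, so none overlap. Of all 32851 promoters, 3.73% held the first form, 5.14% the second and 8.65% either. Of the 49 promoters of members, 3 held either form, which is near that background: 1 each of Wnt11, Wnt5b and Dkk1. The 250 bases before the start are printed 5′ to 3′ on the gene's strand, with the matched letters in capitals.
Wnt11, start of Wnt11-203, chr7:98834862-98835111, plus strand: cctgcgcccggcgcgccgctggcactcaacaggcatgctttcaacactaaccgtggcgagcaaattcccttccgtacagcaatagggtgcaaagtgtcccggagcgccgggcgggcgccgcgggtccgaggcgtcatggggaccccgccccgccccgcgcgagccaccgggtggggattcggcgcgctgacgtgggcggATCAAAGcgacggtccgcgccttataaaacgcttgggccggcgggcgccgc
Wnt11, start of Wnt11-205, chr7:98838595-98838844, plus strand: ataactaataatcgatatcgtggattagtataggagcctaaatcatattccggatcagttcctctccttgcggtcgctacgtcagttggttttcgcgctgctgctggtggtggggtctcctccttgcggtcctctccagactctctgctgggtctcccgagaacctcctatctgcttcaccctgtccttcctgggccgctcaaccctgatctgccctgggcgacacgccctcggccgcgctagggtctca
Wnt5b, start of Wnt5b-201, chr6:119449387-119449636, minus strand: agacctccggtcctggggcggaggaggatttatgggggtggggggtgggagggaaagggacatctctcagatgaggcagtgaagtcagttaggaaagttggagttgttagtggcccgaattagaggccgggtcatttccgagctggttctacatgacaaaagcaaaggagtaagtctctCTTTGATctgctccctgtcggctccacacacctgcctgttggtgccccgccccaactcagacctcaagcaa
Dkk1, chr19:30549497-30549746, minus strand: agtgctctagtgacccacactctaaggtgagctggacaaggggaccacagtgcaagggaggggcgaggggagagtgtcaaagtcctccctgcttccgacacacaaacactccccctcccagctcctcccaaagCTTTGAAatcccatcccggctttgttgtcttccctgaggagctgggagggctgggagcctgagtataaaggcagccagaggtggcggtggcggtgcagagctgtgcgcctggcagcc
In the first Wnt11 promoter the capitals are CTTTGAT read on the opposite strand, and their first base lies 51 bases before the start of Wnt11-203. The second Wnt11 promoter, before Wnt11-205, holds neither form. In Wnt5b the match lies 71 bases before the start of Wnt5b-201, which held only 0.78 and 0.30 TPM. Most Wnt5b RNA was assigned to Wnt5b-204 (4.03 and 10.9 TPM) and Wnt5b-203 (5.34 and 1.79 TPM), which start elsewhere. These Wnt5b transcripts were picked after their values were seen. In Dkk1 the match lies 117 bases before the start. A match is a description of letters and not a bound site, and a promoter without one says nothing about the factor. By base composition the 18 ligand and 6 Frizzled promoters had median GC contents of 71.2% and 74.6%, against 52.4% over all promoters. The other roles with promoters also lay above that value. Their medians were 61.8% (inhibitors), 65.2% (Ror and Ryk), 66% (R-spondin branch) and 67.8% (beta-catenin, TCF/LEF and Axin2).

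Wnt5a was also split between starts. Wnt5a-201, with 1140 coding nucleotides, held 34.9 and 45 TPM. The second transcript, Wnt5a-202, starts downstream and codes for 1080 nucleotides, and it held 33.4 and 34.3 TPM. Their shares of the gene were 40.6% and 47.8% for Wnt5a-201 and 38.9% and 36.5% for Wnt5a-202 in replicates 1 and 2, so neither held most of the gene in either library.

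Ligands that are known from limb ectoderm spanned a range of levels. Wnt6 had 33.2 and 35.1 TPM, Wnt7b 17.6 and 19.1 TPM, and Wnt3, which is needed to form the apical ectodermal ridge, 9.86 and 10.5 TPM in replicates 1 and 2. Wnt10b stood at 8.48 and 7.84 TPM and Wnt10a, known from hair and nail formation, at 3.13 and 3.81 TPM. Wnt3 exceeded its paralog Wnt3a (0.97 and 0.94 TPM) by 2.52 ± 0.17 (adjusted p = 9.10e-05; 3.29 with a pseudocount of 0.1), and Wnt10b exceeded Wnt10a by 1.04 in size (the log2 difference of Wnt10a minus Wnt10b was -1.04, adjusted p = 0.00246). Wnt6 exceeded Wnt7b by 0.86 ± 0.17 (adjusted p = 0.00543). That order turned without length scaling (-0.19, which did not pass). With protein-coding transcripts only the order held, but the difference was 0.31 and did not pass. The retained-intron transcript Wnt6-202 (12 and 10.1 TPM, picked after its values were seen) is left out there. The scaled counts of these 5 ligands differed by 0.966-fold to 1.21-fold between replicates, while Krt5, Krt14 and Krt1 were at 0.705-fold, 0.794-fold and 0.611-fold in replicate 2. The part of the epidermal share in these ligand levels was not tested.

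Wnt7a, the ligand of the dorsal ectoderm, shows how short transcripts enter a gene's TPM. Its level was 3.47 TPM in replicate 1 and 6.23 TPM in replicate 2, a ratio of 1.79, while its scaled counts were 0.9-fold. The coding transcript Wnt7a-201 held 3.47 and 3.1 TPM. A processed transcript of 250 nucleotides, Wnt7a-203, held 0 TPM in replicate 1 and 3.13 TPM in replicate 2, and that value came from 6.43 estimated counts. The effective length of the gene, which divides the counts, was 2973 nucleotides in replicate 1 and 1480 in replicate 2. Wnt7b exceeded Wnt7a in both libraries (log2 difference of Wnt7a minus Wnt7b -1.77 ± 0.22, adjusted p = 0.000811). Wnt7a-203 was picked after its values were seen.

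Ligands known from joints and cartilage had moderate levels. Wnt4 had 13.3 and 12.6 TPM, Wnt9a, which marks the joint interzone, 9.84 and 12.2 TPM, and Wnt16 4.95 and 5.65 TPM. The difference of Wnt4 and Wnt9a, 0.22 (95% interval -0.22 to 0.65), did not pass (adjusted p = 0.276). Wnt2 had 3.98 and 4 TPM and Wnt2b 2.48 and 2.71 TPM, a difference of 0.47 ± 0.17 (adjusted p = 0.0381). That call was lost with a filter at 10 TPM and its sign turned with protein-coding transcripts only (-0.19). The remaining ligands were low. Wnt9b had 0.51 TPM in both libraries, from 166 and 153 counts. Wnt8b, known from the forebrain, had 7 and 4 counts, Wnt8a 2 and 3, and Wnt1, a ligand of the dorsal neural tube, 1 and 2 counts. Wnt1 and Wnt8a thus had at most 3 counts in either library, so no fold is given for them.

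All 10 Frizzled receptors, the proteins that bind Wnts at the cell surface, were detected, and Fzd2 dominated them. Fzd2 (ENSMUSG00000050288.6, chromosome 11, 102604396 to 102608058, a gene of 1 exon) had 136 TPM in replicate 1 and 210 TPM in replicate 2, or 173 ± 52.9 TPM (SD, n = 2). It made up 43% and 46.4% of the summed Frizzled TPM. Fzd8 followed with 39.4 and 63.5 TPM, Fzd1 with 32.9 and 43.3, Fzd9 with 25.9 and 40.8, and Fzd7 with 22.8 and 31 TPM in replicates 1 and 2. Fzd10, Fzd6 and Fzd4 lay between 14.9 and 21.5 TPM, and Fzd5 and Fzd3 between 3.23 and 5.55 TPM in both libraries. Fzd2 thus lay above every other Frizzled in both libraries, without overlap. Against its 2 closest relatives, Fzd2 exceeded Fzd7 by 2.62 ± 0.25 (adjusted p = 0.00033) and Fzd1 by 2.13 in size (log2 difference of Fzd1 minus Fzd2 -2.13 ± 0.25, adjusted p = 0.000602). Fzd9 exceeded Fzd10 by 0.65 ± 0.22 (adjusted p = 0.0369).

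Frizzled genes held the members with the widest difference between the replicates. Of the 53 members that averaged at least 1 TPM, 3 were at least 1.5-fold higher in replicate 2 in TMM-scaled counts and 0 were at least 1.5-fold lower. Of all 15055 genes with that mean, 2.52% were that much higher and 7.49% that much lower. The 3 members were Fzd8 (1.61-fold), Fzd9 (1.57-fold) and Fzd2 (1.55-fold), and each was also past 1.5-fold with DESeq2 size factors and with scaling to the spike-in RNAs. In all, 9 of the 10 Frizzled genes were higher in replicate 2, with a median of 1.31-fold. The exception was Fzd3, at 0.945-fold. Over all members, 42 were higher and 11 lower in replicate 2, with a median of 1.14-fold, while the median over all genes was 1-fold. The median size of the ratio regardless of direction was 1.16-fold for the members and 1.16-fold for all genes.

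Counts of each gene were also compared between the libraries with an exact two-sided binomial test, Benjamini-Hochberg adjusted over all genes with at least 10 counts. This test compares those libraries, not conditions, and sees counting error only. Among the 53 members, 33 passed with more and 3 with fewer reads in replicate 2, against 37.3% and 35.8% of all genes. The 3 with fewer were Dkk2, Ctnnb1 and Wnt4. At this depth 73.1% of all genes passed in one direction or the other, so passing sets no member apart.

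Base composition moved with these ratios. Across 14905 genes, which are not independent replicates and share the libraries, the log2 ratio of replicate 2 to replicate 1 correlated with the GC content of the leading transcript (Pearson r 0.316, Spearman rho 0.451). Over the 53 members the values were 0.371 and 0.337. The median ratio of all genes went from 0.862-fold under 40% GC to 1.32-fold at 65% GC and above. By the leading transcript, Fzd9 (62.2% GC) and Wnt11 (70.2%) belong to the GC-rich genes. For Wnt11 that transcript has 634 nucleotides and held 14.9% and 17.8% of the gene's counts in replicates 1 and 2. The ratio of Wnt11 uses all counts of the gene, and the GC content of its other transcripts is not given here. Fzd8 has 51.7% GC, a range in which the median of all genes was 1.03-fold and 2.2% were at least 1.5-fold higher. In the range of Fzd2 (56.6% GC) these values were 1.13-fold and 3.7%. GC content came from the GENCODE M21 transcripts, and Fzd8-201 has 5974 nucleotides there against 3346 in the model that was counted. The GC content of Fzd8 as counted is thus not known here. The 6 Frizzled genes whose leading transcript has 1 exon were Fzd1, Fzd2, Fzd7, Fzd8, Fzd9 and Fzd10. They had ratios from 1.11-fold to 1.61-fold with a median of 1.45-fold, and GC contents from 51.7% to 62.2%. The other 4 had ratios from 0.945-fold to 1.31-fold with a median of 1.05-fold, and GC contents from 40.3% to 52.7%. This split by exons was not set beforehand, and the sets differ in GC content as well. Over all 406 protein-coding genes with 1 exon and a mean of at least 1 TPM the median was 1.11-fold. Over all 1071 genes of any type with 1 exon and that mean it was 0.999-fold. Tissue markers moved too. All 3 cartilage markers were higher in replicate 2 (Sox9 1.54-fold, Acan 1.22-fold and Col2a1 1.18-fold), while the 3 epidermal keratins were lower. All 6 limb mesenchyme markers were higher as well, by unlike amounts. Pitx1 was at 1.48-fold, Tbx4 at 1.38-fold and Hoxd13 at 1.34-fold, but Tbx5 at 1.11-fold, Hoxa13 at 1.08-fold and Prrx1 at 1.05-fold. Of the muscle markers, the embryonic myosin Myh3 was at 0.575-fold, Myog at 0.952-fold and Actc1 at 1.01-fold, and of the tendon markers Scx was at 1.46-fold and Tnmd at 0.722-fold. The part of base composition and of tissue makeup in the Frizzled ratios was not tested.

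**Figure D2:**
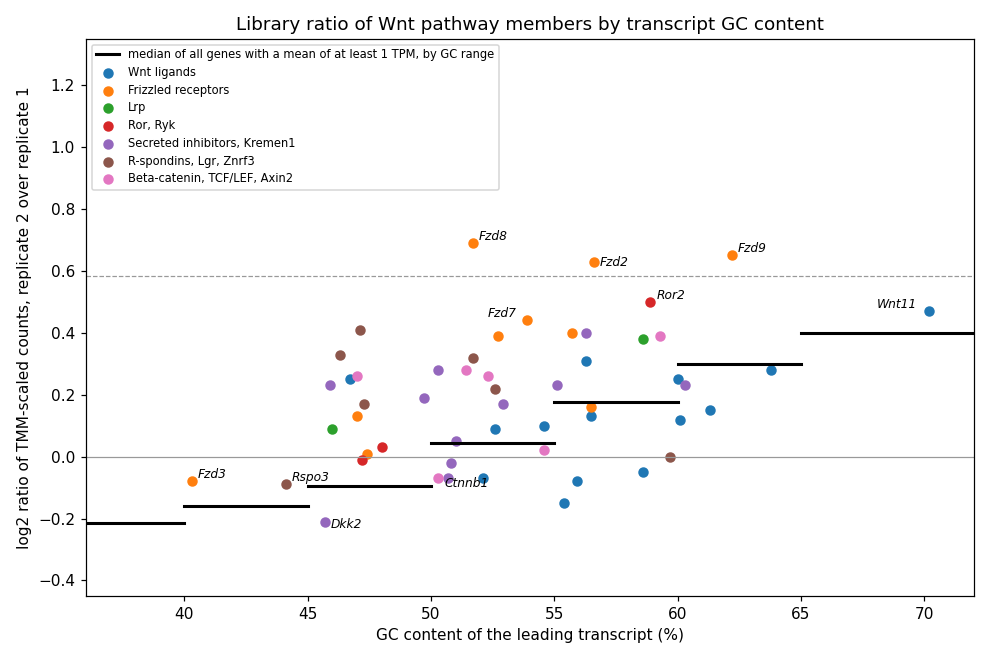
Log2 ratio of TMM-scaled counts, replicate 2 over replicate 1 (vertical axis), against the GC content of the leading transcript in percent (horizontal axis), for the 53 members that averaged at least 1 TPM, coloured by role. Black bars are the medians of all genes in each GC range, the solid grey line marks equal levels and the dashed line 1.5-fold. The black bars rise with GC content, and Fzd8, Fzd2 and Fzd9 are the 3 points above the dashed line.

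The coreceptors Lrp5 and Lrp6, which join Frizzled to start beta-catenin signalling, were nearly level. Lrp5 had 30.2 and 39.5 TPM and Lrp6 31.2 and 33.2 TPM. Which was higher differed between the libraries, and the difference of 0.10 (95% interval -0.39 to 0.59) did not pass (adjusted p = 0.624). With protein-coding transcripts only it was -0.48 and did not pass either (adjusted p = 0.0508). The interval leaves room for a difference in either direction, so equal levels are not shown.

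Receptors that take Wnt signals without Lrp were led by Ryk, a catalytically inactive tyrosine kinase receptor, at 66.4 and 68.4 TPM. Ror2, a receptor of Wnt5a whose loss shortens the limbs (ENSMUSG00000021464.10, chromosome 13, 53109312 to 53286124), had 27.4 TPM in replicate 1 and 39.3 TPM in replicate 2, and Ror1 7.17 and 7.08 TPM. Ror1 was the lowest of the 3 in both libraries, and the log2 difference of Ror1 minus Ror2 was -2.06 ± 0.2 (adjusted p = 0.00033), 4.68-fold by mean TPM. Ryk was split between Ryk-201 (57.5% and 55.3%) and Ryk-203 (36% and 38.2%), with 1773 and 1782 coding nucleotides.

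Ror2 had 2 transcripts with different first coding segments, so the start of the protein differs between them. They are printed here in the coding direction, minus strand of chromosome 13 in GRCm38, from GENCODE M21, with the start codon in capitals.
Ror2-201, chr13:53285781-53285877: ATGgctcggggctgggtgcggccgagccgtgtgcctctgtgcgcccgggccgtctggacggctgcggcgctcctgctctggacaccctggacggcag
Ror2-202, chr13:53285466-53285526: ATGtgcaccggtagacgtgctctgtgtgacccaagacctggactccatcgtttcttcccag
Ror2-201 held 19.3 and 22.5 TPM in replicates 1 and 2, and Ror2-202 8.19 and 16.8 TPM. The share of Ror2-202 was 29.8% in replicate 1 and 42.7% in replicate 2. Most of the 1.42-fold higher count of Ror2 in replicate 2 was thus assigned to the second form.

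Of the 11 inhibitors, all detected, Sfrp2 stood apart. Sfrp2, a secreted protein with a Frizzled-like domain that binds Wnts (ENSMUSG00000027996.9, chromosome 3, 83766321 to 83774316), had 370 TPM in replicate 1 and 534 TPM in replicate 2, or 452 ± 116 TPM (SD, n = 2). It made up 62.8% and 69.6% of the summed TPM of the inhibitors and was the highest of all 59 members in both libraries in gene TPM. Counting protein-coding transcripts only, Ctnnb1 was higher (282 and 268 TPM, against 223 and 225 TPM for Sfrp2). Its relatives were far lower: Sfrp1 had 20 and 19.7 TPM, Frzb, known from cartilage and joints, 11.5 and 14.1, Sfrp5 5.99 and 7.11, and Sfrp4 5.56 and 5.35 TPM. Mean TPM of Sfrp2 was 35.3-fold that of Frzb (log2 difference of Frzb minus Sfrp2 -5.02 ± 0.23, adjusted p = 4.36e-05) and 22.8-fold that of Sfrp1 (-4.42 ± 0.23, adjusted p = 4.36e-05). With protein-coding transcripts only, these log2 differences were -4.03 and -3.43, and both passed.

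Part of this level came from a short transcript, picked here after its values were seen. The coding transcript Sfrp2-201 held 223 and 225 TPM, nearly the same in both libraries. Sfrp2-202, a processed transcript of 600 nucleotides with no annotated coding sequence, held 144 TPM in replicate 1 and 306 TPM in replicate 2, from 4343 and 7986 estimated counts. So the coding transcript took 60.3% of the gene's TPM in replicate 1 and 42.1% in replicate 2. Scaled gene counts were 1.13-fold higher in replicate 2, against 1.44-fold in TPM, and the gene's effective length was 1245 and 964 nucleotides. The stretch that sets Sfrp2-202 apart is its last exon, of 40 nucleotides, printed on the plus strand (GRCm38, GENCODE M21).
Sfrp2-202 exon 3, chr3:83770104-83770143: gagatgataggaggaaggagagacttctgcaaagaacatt
With only this stretch and its junctions of its own, most reads of Sfrp2-202 also fit Sfrp2-201, and the division between them is an estimate.

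The Dickkopf proteins were led by Dkk2. Dkk2 had 52.6 and 45.5 TPM, Dkk3, a divergent family member, 31.5 and 32.6 TPM, and Dkk1, which blocks Lrp5 and Lrp6 and restrains limb outgrowth, 10.8 and 12.8 TPM. Dkk2 exceeded Dkk3 by 0.60 ± 0.18 (adjusted p = 0.0274), and Dkk1 lay below Dkk2 (-1.97 ± 0.18, adjusted p = 0.00033). Kremen1, the receptor that removes Lrp6 together with Dkk1, had 25.7 and 30 TPM. Wif1, a secreted Wnt-binding protein found around cartilage, had 45.2 and 52.1 TPM. Notum, an enzyme that removes the lipid from Wnts and is itself induced by the pathway, had 10.6 and 14.4 TPM. Of Notum's level, 46.7% and 47.1% were assigned to the retained-intron transcript Notum-201 and 39.9% and 40.1% to the coding transcript Notum-202. Dkk2 was the only inhibitor that passed the binomial test with fewer reads in replicate 2, at 0.865-fold.

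The R-spondin branch raises the number of Frizzled receptors at the surface: R-spondins bind Lgr receptors and take away the ubiquitin ligase Znrf3, which otherwise removes Frizzled. Lgr4 was the highest gene of the branch, with 26.9 and 33.6 TPM. Of the other Lgr receptors, Lgr5 had 10.1 and 12.5 TPM and Lgr6 2.66 and 3.44 TPM. Lgr4 exceeded Lgr5 by 1.34 ± 0.19 (adjusted p = 0.00128). Znrf3 had 6.61 and 8.7 TPM. Among the ligands of this branch Rspo3 had 10.2 and 9.65 TPM, Rspo1 7.34 and 6.37, and Rspo2, which is needed for hindlimb development, 2.86 and 3.21 TPM. Both lay below Rspo3, Rspo2 by -1.44 ± 0.17 (adjusted p = 0.000602) and Rspo1 by -0.48 ± 0.17 (adjusted p = 0.0372, lost with a filter at 10 TPM). Rspo4, the R-spondin of nail formation, had only 0.54 TPM in replicate 1 and 1.12 TPM in replicate 2, from 88 and 168 counts, a 2.06-fold ratio.

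Beta-catenin itself (Ctnnb1, ENSMUSG00000006932.12, chromosome 9, 120929216 to 120960507), which also holds cadherins to the cytoskeleton, was the second highest member in both libraries, at 291 and 283 TPM. Its main transcript, Ctnnb1-201, held 82.3% and 76.5% of that level. Among the TCF/LEF factors, Tcf7l1, which mainly represses targets, was highest at 65 and 84.2 TPM. Tcf7l2 followed at 39.5 and 49.2 TPM, Lef1, which mainly activates, at 20.1 and 23.6 TPM, and Tcf7 at 11.6 and 14.4 TPM. The order of the 4 was the same in both libraries. Tcf7l1 exceeded Tcf7l2 by 0.73 ± 0.21 (adjusted p = 0.0224), Tcf7l2 exceeded Lef1 (log2 difference of Lef1 minus Tcf7l2 -0.98 ± 0.19, adjusted p = 0.00516), and Lef1 exceeded Tcf7 by 0.71 ± 0.18 (adjusted p = 0.0152).

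TCF/LEF genes are known to make forms that start downstream of the segment that binds beta-catenin. The transcript tables show only whether a form shares the coding start of the gene's leading transcript, not whether that start is the complete one. In Lef1 the 3 transcripts with the leading coding start held 82.8% and 91% of the gene, and Lef1-203, whose coding sequence starts downstream, 13.6% and 4.85% (2.73 and 1.14 TPM). Both Tcf7 transcripts in the tables share 1 coding start and a coding sequence of 909 nucleotides, so they do not tell forms with and without that segment apart. In Tcf7l1, Tcf7l1-201 held 79% and 81%. For Tcf7l2, no transcript held more than 27.7% in either library, and those that start downstream of its leading coding start summed to 3.92% and 2.6%. Its leading transcript by the mean of both libraries was Tcf7l2-202 (23.8% and 22.6%), while Tcf7l2-222 held 15.9% and 27.7%.

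Lef1 transcripts also differed by an exon of 84 nucleotides, exon 6 of Lef1-201, printed on the plus strand (GRCm38, GENCODE M21).
Lef1 exon 6, chr3:131191023-131191106: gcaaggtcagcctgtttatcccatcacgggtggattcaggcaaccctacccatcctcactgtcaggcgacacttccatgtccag
Transcripts with this exon held 12.4 and 15.6 TPM in replicates 1 and 2, and transcripts that skip it 6.97 and 7.05 TPM. Forms with the exon were higher in both libraries.

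Axin2, the scaffold that is both a brake on beta-catenin and its most widely used reporter (ENSMUSG00000000142.11, chromosome 11, 108920349 to 108950783), had 42.5 and 47.3 TPM, or 44.9 ± 3.42 TPM (SD, n = 2). In both libraries it was above Notum, another gene that the pathway induces, by 1.78 ± 0.19 (adjusted p = 0.00054). Axin2-201 held 28.6 and 24.2 TPM, and its share was 67.4% in replicate 1 and 51.1% in replicate 2. Axin2-202, which lacks the exon of 195 nucleotides printed next on the plus strand, held 1.32 and 6.47 TPM. The noncoding Axin2-203 held 7.18 and 11.9 TPM.
Axin2-201 exon 7, chr11:108942935-108943129: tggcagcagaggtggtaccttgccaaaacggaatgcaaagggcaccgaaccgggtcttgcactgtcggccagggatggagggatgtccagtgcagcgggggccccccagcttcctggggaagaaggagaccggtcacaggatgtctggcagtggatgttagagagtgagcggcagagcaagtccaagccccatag
Both libraries held more of the form with the exon than of Axin2-202, and the replicates differed by more in the division between transcripts than in the level of the gene.

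**Figure D3:**
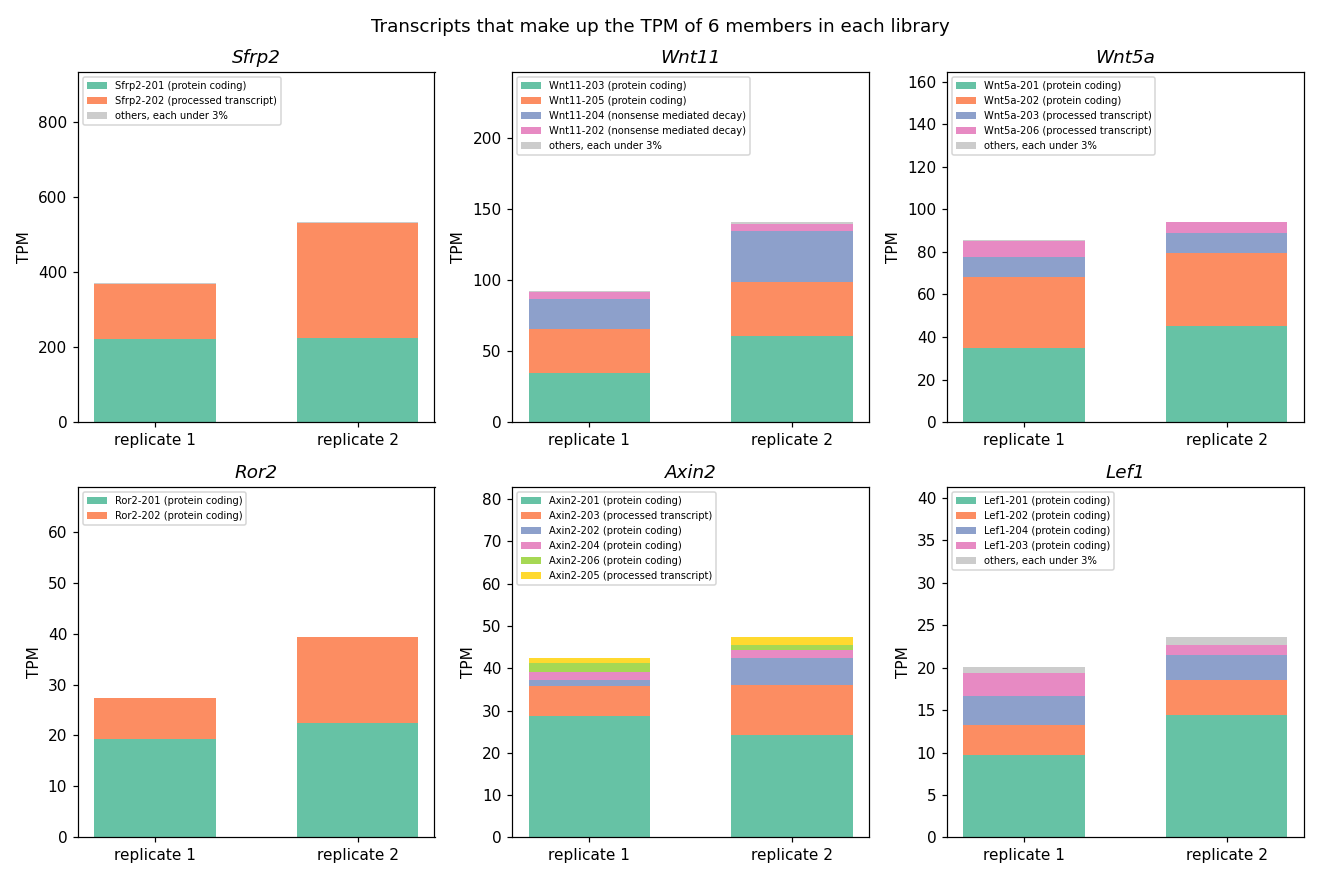
Deposited TPM of the transcripts of Sfrp2, Wnt11, Wnt5a, Ror2, Axin2 and Lef1 (vertical axis, linear, from 0), stacked for each replicate (horizontal axis), with the GENCODE M21 transcript type in brackets. Sfrp2-201 has almost the same height in both bars (223 and 225 TPM) while Sfrp2-202 has 144 and 306 TPM, and Ror2-202 and Axin2-202 take a larger part of replicate 2.

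Over all members, 25 had 1 transcript in the tables and 34 had several. Of the 37 members that averaged at least 10 TPM, 24 had several, and in 5 of these (Wnt5a, Wnt11, Ryk, Notum and Tcf7l2) the leading transcript held under 60% in both libraries. Effective length differed by over 10% between the tables in 5 members: Wnt7a, Fzd5, Sfrp2, Rspo1 and Lgr6. In Fzd5 the 2 transcripts have the same coding sequence of 1755 nucleotides, and the shorter, Fzd5-202, picked after its values were seen, held 0.84 and 3.33 TPM. Exons of 12 members overlap exons of other genes, in most cases on the opposite strand. The largest such neighbour by reads was Ulk4, which shares 759 nucleotides with Ctnnb1 and had 1137 and 1111 counts. No label or header gives the strand setting of the counting, so for these members reads of the opposite gene cannot be told apart. All 59 members held whole gene counts in both libraries, which does not show that no reads were shared.

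Of the 24 pairs compared, 21 passed, and the difference had the same sign in both libraries in all 21 of these and in 23 of the 24. Fitted without a filter on low values, 12 passed: the pairs lost were Wnt7a and Wnt7b, Wnt2 and Wnt2b, Fzd1 and Fzd2, Fzd9 and Fzd10, Dkk2 and Dkk3, Rspo1 and Rspo3, Tcf7l1 and Tcf7l2, and Lef1 with Tcf7 and with Tcf7l2. The 3 largest differences, Frzb and Sfrp2, Sfrp1 and Sfrp2, and Wnt5a and Wnt5b, passed in that fit too. Without length scaling, on a scale that does not compare genes per length, the sign turned for Wnt6 and Wnt7b (-0.19), Wnt2 and Wnt2b (-0.23), Lrp5 and Lrp6 (-0.84) and Wnt5a and Wnt11 (1.77), and Fzd9 and Fzd10 no longer passed (0.13). On that scale Wnt5a and Wnt11 (adjusted p = 3.82e-05), Lrp5 and Lrp6 (adjusted p = 0.00231) and Wnt4 and Wnt9a (0.57, adjusted p = 0.0157) passed.

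**Figure D4:**
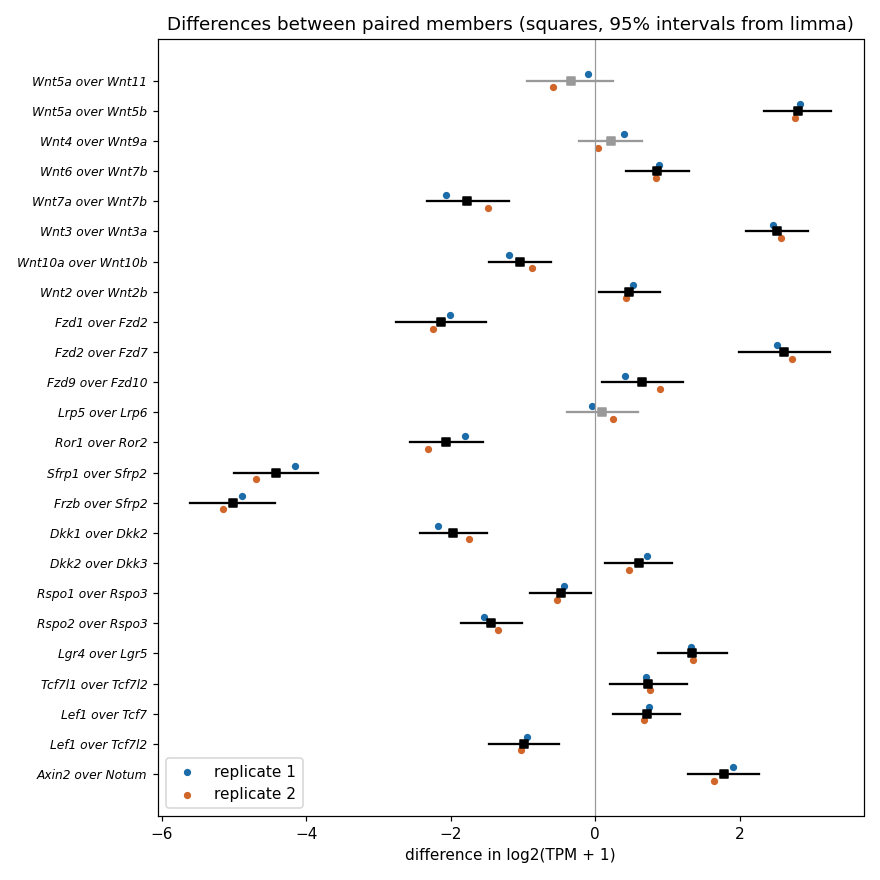
Difference in log2(TPM + 1), first gene minus second, for the 24 pairs of members. Squares with lines are the limma estimate and its 95% interval, black where the adjusted p passed 0.05 and grey where it did not; small blue and orange points are replicates 1 and 2. The 3 grey pairs are Wnt5a over Wnt11, Wnt4 over Wnt9a, and Lrp5 over Lrp6, and the interval of each crosses 0.

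The machinery around these members was present as well. Of 59 further pathway genes, 57 were detected, and their median level was 31.7 TPM. By the same threshold, 33.8% of all genes and 62.8% of protein-coding genes were detected. None of the 57 was 1.5-fold apart between the libraries. Among the 15055 genes averaging 1 TPM or more, 2.52% were that much higher and 7.49% that much lower in replicate 2. Of the 57, 48 were higher and 9 lower in replicate 2. Their median was 1.13-fold, against 1-fold over those 15055 genes. For Wnt secretion, the carrier Wls had a mean of 68.7 TPM and the acyltransferase Porcn 27.7 TPM. Among the surface cofactors the glypican Gpc3 had 650 TPM and Adgra2, which works with Reck, 79.5 TPM, while Reck had 56.9 and Gpc6 31 TPM. All 3 Dishevelled genes, which relay the signal from Frizzled, lay between 60.2 (Dvl2) and 92.2 TPM (Dvl1). In the destruction complex the casein kinases Csnk1e and Csnk1a1 had 159 and 141 TPM, and Amer1 and Apc2 7.75 and 2.37 TPM. Some of these orders turned with protein-coding transcripts only. Dvl3 was then above Dvl1 in both libraries (48.9 and 66.4 against 39.1 and 51.9 TPM). Csnk1a1 was then above Csnk1e (135 and 121 against 90.9 and 81.4 TPM). Coding transcripts of Porcn held 9.17 and 16 TPM.

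Among nuclear cofactors the corepressors Aes (295 TPM) and Tle2 (245 TPM) were highest, and Tle4 (18.3 TPM) and Pygo1 (9.16 TPM) lowest. Most of the Tle2 level was in transcripts not annotated as protein-coding, and its coding transcripts held 60 and 96.9 TPM. Of the further inhibitors Apcdd1 had 148 TPM and Kremen2 37.4 TPM, while Draxin had 1.33 TPM and the bone protein Sost 0.705 TPM. The targets Ccnd1 and Myc had 92.6 and 60.1 TPM, and the more specific targets Nkd1 and Sp5 21 and 6.8 TPM. In the planar polarity group Cthrc1 (244 TPM), which helps Wnt5a bind its receptors, and Scrib (108 TPM) were highest, and Prickle2 (4.88 TPM) and Celsr3 (0.33 TPM) lowest. All values in these sentences are means of both libraries.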

How the data were processed

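Levels were read from the gene and transcript tables of the 2 limb libraries, made against mm10 with GENCODE M4, according to a text file the authors deposited beside them. Which program made them was not given in the sources used here, nor was its strand setting. The authors deposited, per the file headers, an expected count and TPM for each gene and transcript, posterior mean versions with interval bounds, effective lengths, and each transcript's isoform percentage (percent of its gene's TPM). Library sizes exclude rows of spike-ins, phiX and tRNA. Gene names, coordinates, transcript types and exon sequences came from GENCODE M21 (GRCm38), and promoters from RefSeq. Of 43346 gene rows, 884 had no M21 name.

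From the deposited counts, ratios between the libraries were computed with TMM scaling in edgeR 4.0.16 (prior count 0.5), with DESeq2 1.42.0 size factors as an alternative, and tested by a binomial test on rounded counts. Pairs of genes were compared with an intercept-only limma 3.58.1 fit (R 4.3.3, eBayes with trend) to log2(TPM + 1) over the 15056 genes that averaged at least 1 TPM or belong to a pair. The difference used both genes' moderated variances as independent, with 5.37 degrees of freedom. The test scripts were tested on simulated data. The members, lists and pairs were chosen with earlier results of these data known.

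All members could be named. Of the further pathway genes, the 2 highest and 2 lowest of each role by mean TPM were named. Transcripts were named for members of at least 10 TPM whose leading transcript held under 60% in both libraries and for Lef1, Tcf7, Tcf7l1, Tcf7l2, Ctnnb1, Axin2, Wnt5a and Ror2, and other transcripts are marked as picked afterwards.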

Additional observations from a re-analysis of the deposited data

How the results depend on the processing

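The number of members detected was 53 and lay between 53 and 56 over a threshold of 0.5 or 2 TPM, posterior mean TPM and either library alone. The number of members at least 1.5-fold apart, 3, stayed at 3 with DESeq2 size factors and with spike-in scaling. It was 6 in deposited TPM (adding Wnt7a, Wnt11 and Fzd5), 7 with no filter on low values (adding Wnt1, Wnt8a, Wnt8b and Rspo4, all under 1 TPM) and 5 with protein-coding transcripts only (adding Wnt11 and Fzd5). The 37 members past the binomial test, Rspo4 included, were 37 with DESeq2 size factors and 39 with total counts. Of the 24 pairs, 21 passed, and 12 did with no filter on low values, where the fit had 1.68 degrees of freedom and 17 pairs had an unadjusted p under 0.05. Counts without length scaling turned the sign of Wnt5a over Wnt11 (1.77), Wnt6 over Wnt7b (-0.19), Wnt2 over Wnt2b (-0.23) and Lrp5 over Lrp6 (-0.84). Length scaling is the only step in which they differ from TPM apart from the total. With protein-coding transcripts only, an alternative chosen after seeing the data, the difference of Wnt2 over Wnt2b was -0.19, and a Wnt2 transcript without an M21 match is left out there. There too the difference of Lrp5 over Lrp6 was -0.48, on the same side of the threshold. Of 168 pair values with a test under the alternatives, 148 kept both their sign and their side of the threshold, 6 had the other sign, 13 lost the call and 1 gained it. Leaving out a replicate gives a pair's difference with no test, and no ratio between the libraries, so the ratios were not computed that way. Samples could not be paired between groups because there is only 1 group, with 1 library for each replicate number. Both genes of a pair were measured in the same libraries, and the pair tests did not use this. Wnt1, Wnt8a and Wnt8b, with at most 7 counts, are limited by depth.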
